A study of Homo sapiens with 4 samples.

Results

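The endoplasmic reticulum (ER) folding genes described here are 39 genes that encode ER chaperones, their helper proteins and the enzymes that form disulfide bonds or isomerise prolines in new secretory proteins. They were taken by symbol from a fixed list, with no cutoff on their values. That list was chosen with earlier results of these data known. All 39 were found among the 22187 gene symbols measured. RNA was sequenced from 2 human multiple myeloma cell lines, KMS18 and KMS28BM (the labels write K18 and K28BM), which both carry the t(4;14) translocation. The tested libraries, 1 per line, came from cells in which PKCα, the protein kinase C isoform that PRKCA encodes, was stably knocked down, and the controls, 1 per line, from cells with a construct labelled Luc, read here as luciferase. The sources used here do not give the knockdown sequence, the number of clones or whether cultures were pooled. The question of the comparison was how lower PKCα changes RNA levels in t(4;14) myeloma cells.

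Secretory proteins enter the ER unfolded. HSPA5 (BiP), an HSP70 chaperone driven by J-domain partners and nucleotide exchange factors, binds exposed hydrophobic stretches, and HSP90B1 (GRP94) acts on later folding steps. Calnexin and calreticulin hold glycoproteins by their sugars. Protein disulfide isomerases make and reshuffle cysteine bonds and are reoxidised by ERO1 enzymes. Plasma cells, the cell of origin of myeloma, secrete antibodies and carry high levels of this machinery. When unfolded protein builds up, the unfolded protein response sensors ATF6, IRE1 (ERN1) and PERK (EIF2AK3) raise many of these genes, partly through an ER stress response element (ERSE) in their promoters, in which NF-Y binds CCAAT and ATF6 or XBP1 binds CCACG.

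Promoter sequence is shown first because the genes were taken by symbol and not by sequence. The element is known from promoters of genes of this kind, as stated above. The shares below thus describe the list and are no independent support. RefSeq promoters on GRCh38.p14 (250 bases before to 50 after each start) matched 37 of the 39 genes, and PDIA3 and FKBP14 had no entry. Searched on both strands, the ERSE was CCAAT and CCACG with 9 bases between them, and its second form, ERSE-II, was ATTGG and CCACG with 1 base between them. Each contains CCACG. The ERSE was found in 7 of 37 genes (18.9%), against 15 of 10259 tested genes with a promoter entry (0.15%, the 7 included). It was in 27 of all 35116 promoters (0.08%). ERSE-II was found in 2 of 37 genes (5.4%), against 14 of the 10259 (0.14%). In 28 of the 37 genes neither form was found. Capitals mark the matched letters of either form, each site is read on the strand given, and positions count from the RefSeq start listed for that promoter, which can lie inside the span GENCODE gives the gene.
HSPA5, chr9:125241391-125241409, minus strand, -66 to -48: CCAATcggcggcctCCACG
HSP90B1, chr12:103930216-103930234, plus strand, -194 to -176: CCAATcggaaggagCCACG
HSP90B1, chr12:103930321-103930339, minus strand (opposite to the gene), -89 to -71: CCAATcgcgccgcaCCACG
PDIA6, chr2:10812853-10812871, minus strand, -86 to -68 of the second of its 2 listed starts: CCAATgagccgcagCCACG
CALR, chr19:12938384-12938402, minus strand (opposite to the gene), -225 to -207: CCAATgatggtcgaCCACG
CANX, chr5:179698778-179698796, plus strand, -151 to -133 of the first of its listed starts: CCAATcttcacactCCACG
CRELD2, chr22:49918554-49918572, minus strand (opposite to the gene), -80 to -62: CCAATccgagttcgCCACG
ERO1B, chr1:236282183-236282201, plus strand (opposite to the gene), -243 to -225: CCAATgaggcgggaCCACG
HYOU1, chr11:119057274-119057284, plus strand (opposite to the gene), -79 to -69, ERSE-II: ATTGGaCCACG
HYOU1, chr11:119057380-119057390, plus strand (opposite to the gene), -185 to -175, ERSE-II: ATTGGaCCACG
SDF2L1, chr22:21642114-21642124, minus strand (opposite to the gene), -188 to -178, ERSE-II: ATTGGtCCACG

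The stretch of the HSPA5 promoter from -130 to -31 (chr9:125241374-125241473, minus strand) and that of HSP90B1 from -200 to -61 (chr12:103930210-103930349, plus strand) are given for context around the elements. In the HSP90B1 stretch the second element, which lies on the other strand, appears in reverse complement as CGTGG and ATTGG. The remaining CCAAT-like letters in lower case have no exact CCACG at the searched spacing, and inexact matches were not searched.
HSPA5: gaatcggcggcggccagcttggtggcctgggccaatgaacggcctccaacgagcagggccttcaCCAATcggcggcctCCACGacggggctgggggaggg
HSP90B1: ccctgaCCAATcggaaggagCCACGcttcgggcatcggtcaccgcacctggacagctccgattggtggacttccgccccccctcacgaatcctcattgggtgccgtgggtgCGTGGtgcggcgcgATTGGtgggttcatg

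Each library held 37940949 to 39507281 expected counts in total, and 11100 to 11591 genes reached 1 FPKM (fragments scaled to gene length and library size) in each. PRKCA was at 1.47 FPKM in KMS18 knockdown and 7.46 FPKM in KMS18 control, and at 2.43 FPKM in KMS28BM knockdown and 10.86 FPKM in KMS28BM control. Its log2 difference was -2.34 (edgeR adjusted p = 0.00153, SE 0.11, n = 2 lines). Of 8 plasma cell markers 7 reached 1 FPKM in every library, and CD27 was listed at 0. The markers' summed level was lower in knockdown, at 808 FPKM against 1309 in control for KMS18 and 775 against 1272 for KMS28BM. That sum includes XBP1, whose own values are given further on, and CD38 alone was higher in knockdown in both lines, at 29.17 FPKM against 26.39 in control for KMS18 and 5.99 against 4.99 for KMS28BM. Immunoglobulin genes took 4.28% of counts in KMS18 knockdown and 4.66% in KMS18 control, and 0.79% in KMS28BM knockdown and 1.22% in KMS28BM control. No marker of B cells, myeloid cells, red cells, stroma or epithelium reached 1 FPKM in all libraries, and 1 of 5 T and NK cell markers did. The B cell markers summed to 2.87 FPKM in KMS18 knockdown and 2.26 FPKM in KMS18 control. In KMS28BM they summed to 6.82 FPKM in knockdown and 10.18 FPKM in control, mostly CD79A. The T and NK cell markers summed to 22.83 FPKM in KMS18 knockdown and 8.86 FPKM in KMS18 control, and to 3.38 FPKM in KMS28BM knockdown and 1.20 FPKM in KMS28BM control. Most of each sum was CD3E, at 20.95 and 7.32 FPKM in KMS18 knockdown and control and at 3.27 and 1.0 FPKM in KMS28BM knockdown and control. CD7 and CD2 were also higher in KMS18 knockdown, at 0.82 and 0.12 FPKM, than in KMS18 control, at 0.32 and 0.03 FPKM. CD3D and NKG7 were lower in KMS18 knockdown, at 0.06 and 0.88 FPKM, than in KMS18 control, at 0.22 and 0.97 FPKM. All of these but CD3E stayed below 1 FPKM in every library. EPCAM, an epithelial marker, was at 206.57 FPKM in KMS18 knockdown and 289.95 FPKM in KMS18 control, and at 0.04 FPKM in both KMS28BM libraries. Marker levels move with the results that follow, and their part in them was not tested.

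The ER folding genes were lower in the knockdown libraries of both lines. Of the 39, all tested, 21 fell (53.8%) and 0 rose by edgeR's quasi-likelihood test with cell line in the model (adjusted p under 0.05 over 14870 genes), where 5.25% of all tested genes fell and 3.57% rose. Their median log2 difference was -0.46 against 0.02 for all genes tested, with a range of -1.45 to 0.40. The TMM-scaled count was below control in both lines for 33 of the 39 (84.6%), against 32.9% of all tested genes. At an unadjusted p under 0.05, 30 were lower and 1 was higher, against 2045 lower and 1874 higher of the 14870 genes tested. In bulk RNA, less transcript per cell and fewer cells carrying it cannot be told apart.

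Without cell line in the model edgeR called 0 of the 39 and 0 of all genes, with 5 of the 39 at an unadjusted p under 0.05. Scaled by library totals in place of TMM, 13 of the 39 fell and 0 rose, against 2.74% of all tested genes that fell, and over all genes 45.9% of calls were lower in place of 59.5%.

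**Figure D1:**
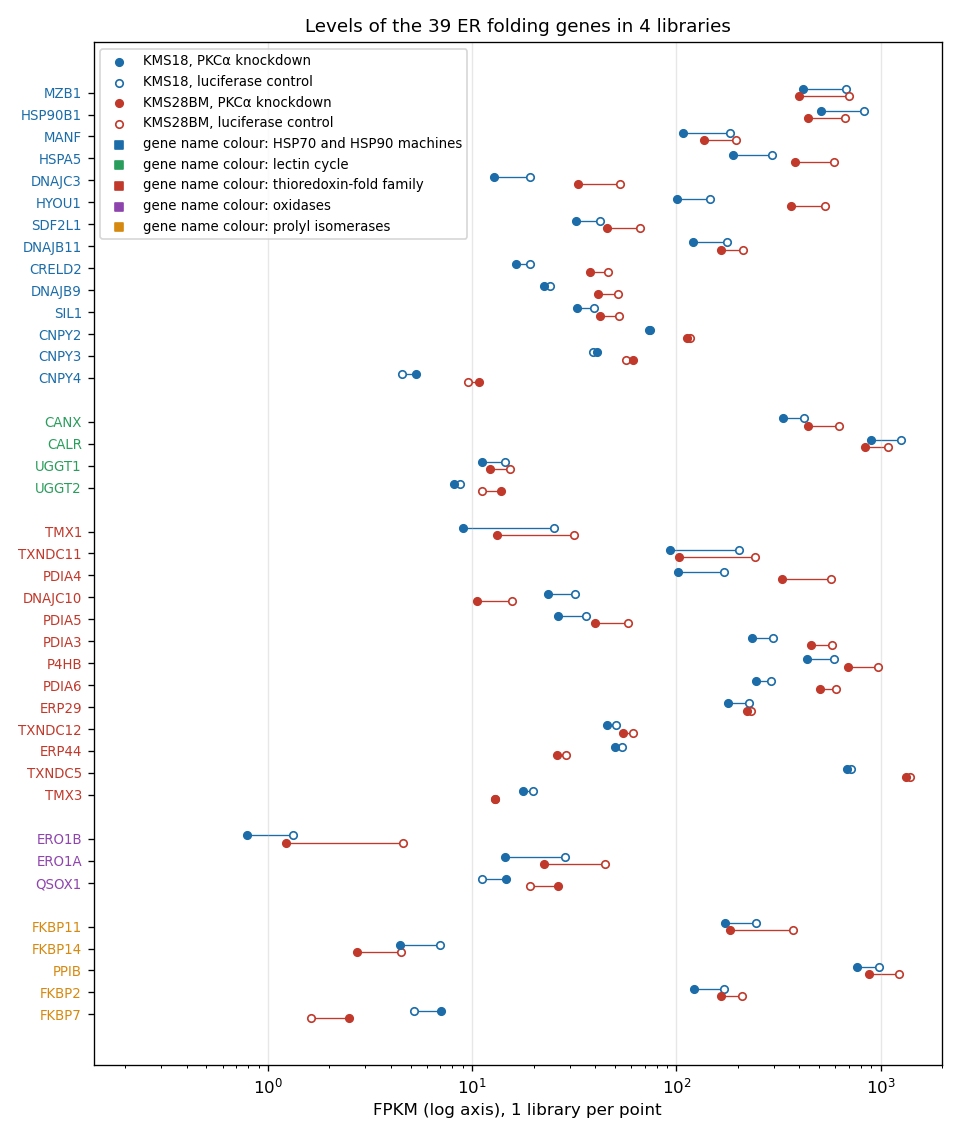
FPKM of each of the 39 genes (log axis, 1 library per point, lines joining the libraries of a cell line), grouped by role. Filled points are PKCα knockdown and open points luciferase control; filled points lie left of open ones for most genes, and QSOX1, FKBP7, CNPY3 and CNPY4 lie the other way in both lines.

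Summed over the 39 genes, the level was 6183.8 FPKM in KMS18 knockdown and 8440.8 FPKM in KMS18 control, a ratio of 0.733. In KMS28BM it was 8671.9 FPKM in knockdown and 11788.4 FPKM in control, a ratio of 0.736. The genes took 1.301% of all counts in KMS18 knockdown and 1.726% in KMS18 control, and 1.97% in KMS28BM knockdown and 2.621% in KMS28BM control. Both lines thus had about the same proportional difference at different levels. By role, the FPKM ratio of knockdown to control in KMS18 and KMS28BM was 0.655 and 0.677 for the HSP70 and HSP90 machines, and 0.735 and 0.755 for the lectin cycle. It was 0.791 and 0.792 for the thioredoxin-fold family, 0.733 and 0.730 for the oxidases, and 0.759 and 0.677 for the prolyl isomerases. Each ratio sets 1 library against 1 library and has no replicate check.

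**Figure D2:**
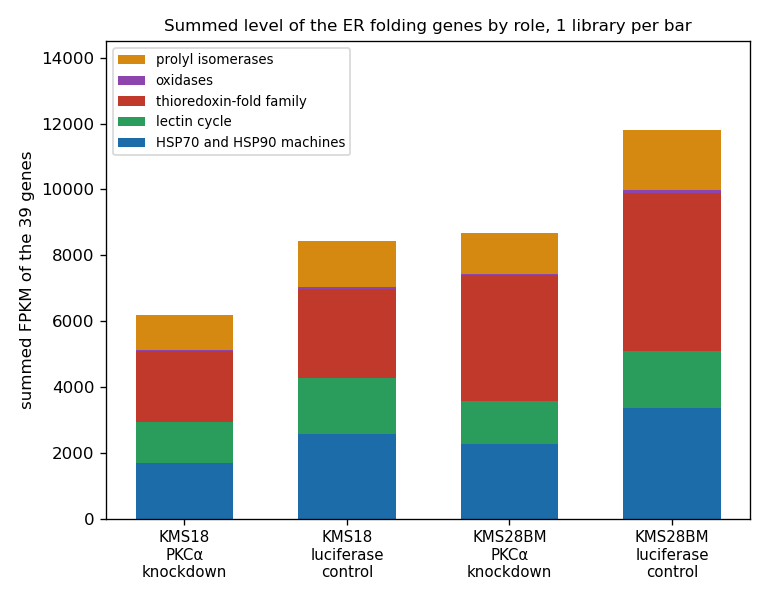
Summed FPKM of the 39 genes in each library, stacked by role. The knockdown bar is lower than its control in both lines, 6183.8 against 8440.8 FPKM in KMS18 and 8671.9 against 11788.4 FPKM in KMS28BM.

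Among the HSP70 and HSP90 machines 8 of 14 fell (57.1%) and 0 rose, against 5.25% and 3.57% of all tested genes. The median log2 difference was -0.53. HSPA5 (chr9:125234853-125241330, GRCh38), the central ER HSP70, was at 190.5 FPKM in KMS18 knockdown and 293 FPKM in KMS18 control. In KMS28BM it was at 383 FPKM in knockdown and 591 FPKM in control. Both knockdown libraries held about 65% of their control (65.0% and 64.8%), and both KMS28BM libraries lay above the KMS18 control. Over both lines HSPA5 had a log2 difference of -0.69 (SE 0.11, 95% interval -0.95 to -0.44, edgeR adjusted p = 0.0144).

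HSP90B1 (chr12:103930107-103953645, GRCh38), the ER HSP90, was at 512 FPKM in KMS18 knockdown and 831 FPKM in KMS18 control, and at 442 FPKM in KMS28BM knockdown and 673 FPKM in KMS28BM control. Here the knockdown libraries lay below both controls. The log2 difference was -0.72 (SE 0.11, interval -0.98 to -0.46, edgeR adjusted p = 0.0138). MZB1, which helps antibody assembly in plasma cells, had 415 FPKM in KMS18 knockdown and 680.1 FPKM in KMS18 control, and 398 FPKM in KMS28BM knockdown and 699.6 FPKM in KMS28BM control. The line term did not pass for MZB1 (edgeR adjusted p = 0.186), and its knockdown log2 difference of -0.83 (SE 0.10, edgeR adjusted p = 0.00926) was the lowest of the 14.

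HYOU1, a large HSP70-like exchange factor of HSPA5, had 101 FPKM in KMS18 knockdown and 146 FPKM in KMS18 control, and 366 FPKM in KMS28BM knockdown and 537 FPKM in KMS28BM control (log2 difference -0.62, SE 0.11, edgeR adjusted p = 0.0195). HYOU1 is listed under 2 near-identical identifiers, between which the counting split its reads, and the values are their sums. MANF, a small secreted cofactor of HSPA5, had 108 FPKM in KMS18 knockdown and 184 FPKM in KMS18 control, and 136 FPKM in KMS28BM knockdown and 197 FPKM in KMS28BM control. Its knockdown libraries lay below both controls (log2 difference -0.71, SE 0.10, edgeR adjusted p = 0.0126).

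Of the J-domain partners of HSPA5 in this group, DNAJC3 and DNAJB11 fell and DNAJB9 did not pass. DNAJC3, which binds unfolded client proteins, was at 12.8 FPKM in KMS18 knockdown and 19.2 FPKM in KMS18 control, and at 33.1 FPKM in KMS28BM knockdown and 53.0 FPKM in KMS28BM control. Its log2 difference was -0.67 (SE 0.09, edgeR adjusted p = 0.0117). DNAJB11 had 121 FPKM in KMS18 knockdown and 178 FPKM in KMS18 control, and 166 FPKM in KMS28BM knockdown and 212 FPKM in KMS28BM control (log2 difference -0.52, SE 0.10, edgeR adjusted p = 0.0299). SDF2L1, which forms a complex with DNAJB11, fell by 0.54 (SE 0.11, edgeR adjusted p = 0.0318), at 32.2 FPKM in KMS18 knockdown and 42.3 FPKM in KMS18 control, and 45.8 FPKM in KMS28BM knockdown and 66.7 FPKM in KMS28BM control. DNAJB9, which brings HSPA5 to IRE1, was at 22.5 FPKM in KMS18 knockdown and 24.0 FPKM in KMS18 control, and at 41.4 FPKM in KMS28BM knockdown and 51.6 FPKM in KMS28BM control. Its log2 difference was -0.31 with an interval of -0.55 to -0.08 (edgeR adjusted p = 0.0997).

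The other 5 of the 14 did not pass. CRELD2, an ER stress-induced secreted protein, had 16.4 FPKM in KMS18 knockdown and 19.1 FPKM in KMS18 control, and 37.7 FPKM in KMS28BM knockdown and 46.4 FPKM in KMS28BM control (interval -0.58 to -0.08, edgeR adjusted p = 0.106). SIL1, a nucleotide exchange factor of HSPA5, was at 32.6 FPKM in KMS18 knockdown and 39.4 FPKM in KMS18 control, and at 42.2 FPKM in KMS28BM knockdown and 52.5 FPKM in KMS28BM control (log2 difference -0.24, edgeR adjusted p = 0.189). The canopy family, of which CNPY3 assists HSP90B1 in folding Toll-like receptors, stood nearest to 0. The log2 difference was -0.10 for CNPY2 (interval -0.32 to 0.12), 0.02 for CNPY3 (interval -0.20 to 0.24) and 0.06 for CNPY4 (interval -0.33 to 0.45). CNPY2 was at 74.0 FPKM in KMS18 knockdown and 73.4 FPKM in KMS18 control, and at 113 FPKM in KMS28BM knockdown and 117 FPKM in KMS28BM control. CNPY4 was at 5.32 FPKM in KMS18 knockdown and 4.53 FPKM in KMS18 control, and at 10.8 FPKM in KMS28BM knockdown and 9.58 FPKM in KMS28BM control. CNPY3 was at 41.0 FPKM in KMS18 knockdown and 39 FPKM in KMS18 control, and at 61.1 FPKM in KMS28BM knockdown and 57.0 FPKM in KMS28BM control. All 3 intervals lie above that of HSPA5.

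**Figure D3:**
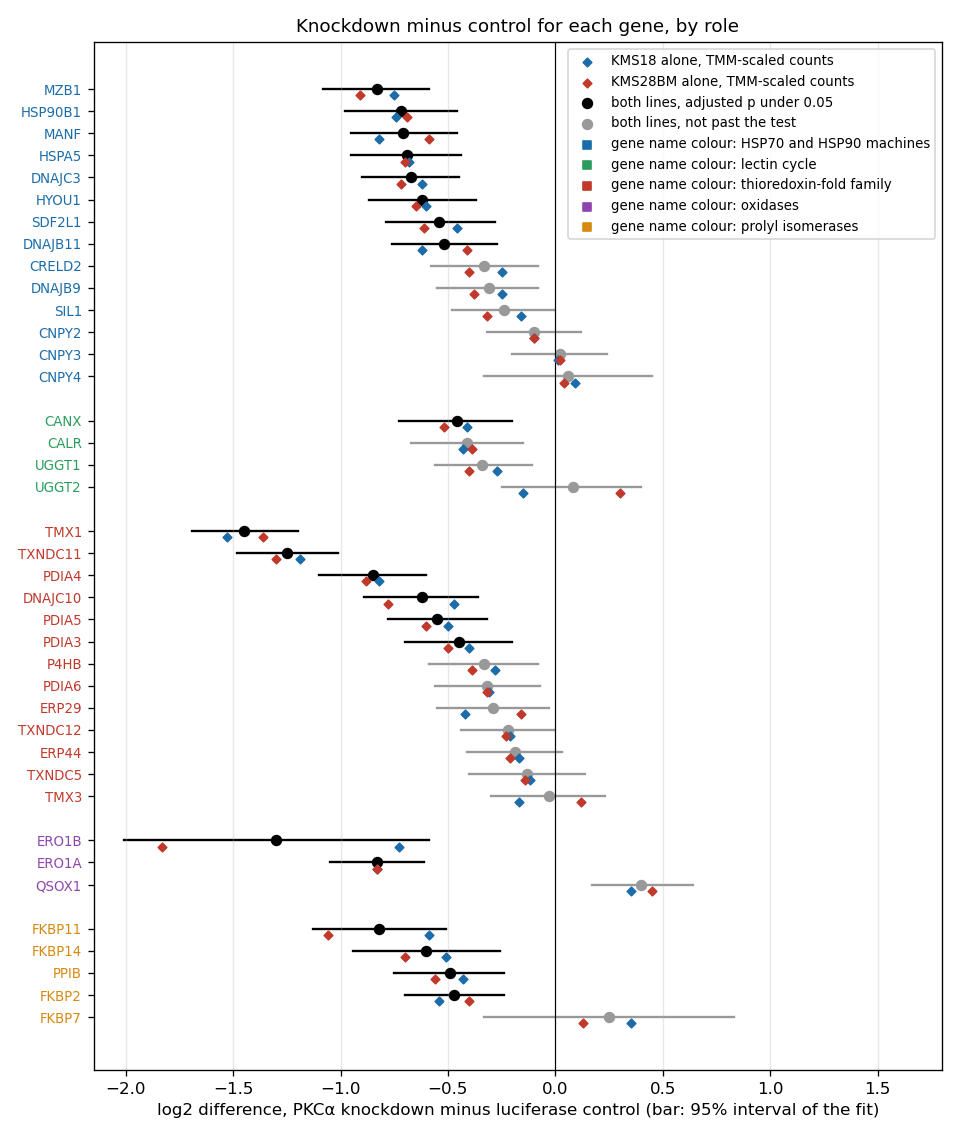
Log2 difference of knockdown minus control for each gene, by role, from the edgeR fit over both lines with its 95% interval (black: adjusted p under 0.05), and the ratio of TMM-scaled counts in each line alone (diamonds). Black points run from TMX1 at -1.45 to PDIA3 at -0.45, and the highest point is QSOX1 at 0.40, which did not pass.

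In the lectin cycle 1 of 4 fell (25.0%) and 0 rose, against 5.25% and 3.57% of all tested genes. CANX (calnexin), the membrane-bound lectin chaperone, was at 334 FPKM in KMS18 knockdown and 421 FPKM in KMS18 control, and at 443 FPKM in KMS28BM knockdown and 624 FPKM in KMS28BM control. Its log2 difference of -0.46 (SE 0.11, edgeR adjusted p = 0.0483) lay just past the threshold and was lost in 4 of 7 alternatives. CANX, like HYOU1, is a sum over 2 near-identical identifiers. CALR (calreticulin), the soluble counterpart, had 895 FPKM in KMS18 knockdown and 1254 FPKM in KMS18 control, and 844 FPKM in KMS28BM knockdown and 1089 FPKM in KMS28BM control. The knockdown libraries lay below both controls, and the log2 difference was -0.41 (interval -0.67 to -0.15, edgeR adjusted p = 0.0657). DESeq2 (adjusted p = 5.25e-05) and limma on log2(FPKM + 1) (adjusted p = 0.0466) called CALR lower.

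UGGT1, the sensor that returns unfolded glycoproteins to the cycle, had 11.2 FPKM in KMS18 knockdown and 14.5 FPKM in KMS18 control, and 12.2 FPKM in KMS28BM knockdown and 15.3 FPKM in KMS28BM control (log2 difference -0.34, edgeR adjusted p = 0.0768). UGGT2, its paralog, was at 8.15 FPKM in KMS18 knockdown and 8.73 FPKM in KMS18 control, and at 13.8 FPKM in KMS28BM knockdown and 11.2 FPKM in KMS28BM control. The lines went opposite ways, and the log2 difference over both was 0.08 (interval -0.25 to 0.40).

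In the thioredoxin-fold family 6 of 13 fell (46.2%) and 0 rose, against 5.25% and 3.57% of all tested genes. The median log2 difference of the family was -0.33. The lowest of all 39 genes was TMX1 (chr14:51240162-51257546, GRCh38), a membrane-bound oxidoreductase. TMX1 had 9.06 FPKM in KMS18 knockdown and 25.1 FPKM in KMS18 control, and 13.3 FPKM in KMS28BM knockdown and 31.7 FPKM in KMS28BM control. Its knockdown libraries held 36.2% and 41.9% of their controls, and the log2 difference was -1.45 (SE 0.10, interval -1.69 to -1.20, edgeR adjusted p = 0.00292). TXNDC11 (chr16:11679080-11742878, GRCh38), another membrane-bound thioredoxin-domain protein, had 93.2 FPKM in KMS18 knockdown and 202 FPKM in KMS18 control, and 103 FPKM in KMS28BM knockdown and 242 FPKM in KMS28BM control. It fell by 1.25 (SE 0.10, interval -1.48 to -1.01, edgeR adjusted p = 0.0034). TMX3, a related membrane protein, did not pass (edgeR adjusted p = 0.9). It was at 17.8 FPKM in KMS18 knockdown and 19.9 FPKM in KMS18 control, and at 12.9 FPKM in both KMS28BM libraries. The interval of TMX3, -0.30 to 0.23, lies above that of TMX1.

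Among the soluble disulfide isomerases, PDIA4 (ERp72), which works in a complex with HSPA5, had 102 FPKM in KMS18 knockdown and 171 FPKM in KMS18 control, and 328 FPKM in KMS28BM knockdown and 573 FPKM in KMS28BM control. Its log2 difference was -0.85 (SE 0.10, interval -1.10 to -0.60, edgeR adjusted p = 0.00891). DNAJC10 (ERdj5), a J-domain reductase that helps clear misfolded proteins, was at 23.4 FPKM in KMS18 knockdown and 31.9 FPKM in KMS18 control, and at 10.6 FPKM in KMS28BM knockdown and 15.7 FPKM in KMS28BM control. It fell by 0.62 (SE 0.11, edgeR adjusted p = 0.0221). PDIA5 fell by 0.55 (SE 0.10, edgeR adjusted p = 0.0205), with 26.4 FPKM in KMS18 knockdown and 36.3 FPKM in KMS18 control, and 39.9 FPKM in KMS28BM knockdown and 57.7 FPKM in KMS28BM control. PDIA3 (ERp57), the isomerase that calnexin and calreticulin recruit, had 235 FPKM in KMS18 knockdown and 299 FPKM in KMS18 control, and 456 FPKM in KMS28BM knockdown and 578 FPKM in KMS28BM control. Its log2 difference of -0.45 (edgeR adjusted p = 0.0453) was lost in 5 of 7 alternatives.

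P4HB, the classical disulfide isomerase, had 435 FPKM in KMS18 knockdown and 593 FPKM in KMS18 control, and 691 FPKM in KMS28BM knockdown and 969 FPKM in KMS28BM control. On counts its log2 difference was -0.33 (interval -0.59 to -0.08, edgeR adjusted p = 0.105), while limma on log2(FPKM + 1) gave -0.47 (adjusted p = 0.0345) and DESeq2 an adjusted p of 0.00379. The gene length listed for P4HB was 1.164 times as long in KMS18 knockdown as in its control and 1.125 times as long in KMS28BM knockdown, which lowers FPKM relative to counts. PDIA6 was at 245 FPKM in KMS18 knockdown and 291 FPKM in KMS18 control, and at 508 FPKM in KMS28BM knockdown and 603 FPKM in KMS28BM control. Its log2 difference was -0.32 (edgeR adjusted p = 0.107).

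TXNDC5 (ERp46), the most abundant of the 39 genes by mean FPKM, did not pass. It had 687 FPKM in KMS18 knockdown and 717 FPKM in KMS18 control, and 1339 FPKM in KMS28BM knockdown and 1396 FPKM in KMS28BM control. The log2 difference was -0.13 with an interval of -0.40 to 0.14 (edgeR adjusted p = 0.529). TXNDC5 made up 11.1% of the summed FPKM in KMS18 knockdown and 8.5% in KMS18 control, and 15.4% in KMS28BM knockdown and 11.8% in KMS28BM control. The read-through gene BLOC1S5-TXNDC5 shares its exons on the same strand, so reads could be split between them.

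The other 3 of this family also missed the threshold. ERP44, which retains ERO1 enzymes and unassembled antibody, had 49.9 FPKM in KMS18 knockdown and 53.9 FPKM in KMS18 control, and 26.1 FPKM in KMS28BM knockdown and 28.7 FPKM in KMS28BM control (log2 difference -0.19, interval -0.41 to 0.03, edgeR adjusted p = 0.248). TXNDC12 had 46.0 FPKM in KMS18 knockdown and 50.9 FPKM in KMS18 control, and 55.0 FPKM in KMS28BM knockdown and 61.2 FPKM in KMS28BM control (log2 difference -0.22, edgeR adjusted p = 0.185). ERP29, a redox-inactive relative, stood at 179.9 FPKM in KMS18 knockdown and 226 FPKM in KMS18 control, and at 221 FPKM in KMS28BM knockdown and 232 FPKM in KMS28BM control (log2 difference -0.29, edgeR adjusted p = 0.146). ERP29 kept 79.6% of its control level in KMS18 and 95% in KMS28BM.

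Of the 3 oxidases, ERO1A and ERO1B fell (66.7%, against 5.25% of all tested genes) and QSOX1 did not pass. ERO1A, which reoxidises disulfide isomerases, had 14.5 FPKM in KMS18 knockdown and 28.4 FPKM in KMS18 control, and 22.5 FPKM in KMS28BM knockdown and 44.8 FPKM in KMS28BM control. Its log2 difference was -0.83 (SE 0.09, interval -1.05 to -0.61, edgeR adjusted p = 0.00689), and the TMM-scaled count ratio was -0.83 in each line. As for P4HB, the listed length was longer in knockdown than in control, 1.143 times in KMS18 and 1.177 times in KMS28BM. This lowers the FPKM of ERO1A relative to its counts. ERO1B, its paralog, was low, at 0.79 FPKM in KMS18 knockdown and 1.32 FPKM in KMS18 control, and at 1.23 FPKM in KMS28BM knockdown and 4.61 FPKM in KMS28BM control. These rest on 109 expected counts in KMS18 knockdown and 173 in KMS18 control, and on 143 in KMS28BM knockdown and 485 in KMS28BM control. The count ratio of ERO1B was -0.73 in KMS18 (95% Poisson interval -1.08 to -0.37) and -1.83 in KMS28BM (-2.11 to -1.55), so its log2 difference of -1.30 (SE 0.30, edgeR adjusted p = 0.0451) leans on KMS28BM. It held in 1 of the 5 alternatives that gave ERO1B an adjusted p.

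QSOX1, a sulfhydryl oxidase of the Golgi and the secretory route, stood higher in knockdown in both lines. It was at 14.6 FPKM in KMS18 knockdown and 11.2 FPKM in KMS18 control, and at 26.2 FPKM in KMS28BM knockdown and 19.1 FPKM in KMS28BM control. The log2 difference was 0.40 (SE 0.10, interval 0.17 to 0.64, edgeR adjusted p = 0.054). DESeq2 (adjusted p = 0.0451) and edgeR at a minimum of 5 CPM (counts scaled to library size) in at least 2 libraries (adjusted p = 0.0396) called it higher.

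Of the 5 prolyl isomerases 4 fell (80.0%) and 0 rose, against 5.25% and 3.57% of all tested genes. PPIB (cyclophilin B), the most abundant, had 765 FPKM in KMS18 knockdown and 984 FPKM in KMS18 control, and 876 FPKM in KMS28BM knockdown and 1228 FPKM in KMS28BM control (log2 difference -0.49, SE 0.11, edgeR adjusted p = 0.0383). FKBP11, a membrane-bound member typical of secretory cells, had 174 FPKM in KMS18 knockdown and 245 FPKM in KMS18 control, and 183 FPKM in KMS28BM knockdown and 373 FPKM in KMS28BM control. FKBP11 fell by 0.82 (SE 0.13, edgeR adjusted p = 0.0153), with 71.0% of control left in KMS18 and 49.1% in KMS28BM. FKBP2 fell by 0.47 (SE 0.10, edgeR adjusted p = 0.0328), with 122 FPKM in KMS18 knockdown and 172 FPKM in KMS18 control, and 166 FPKM in KMS28BM knockdown and 209.6 FPKM in KMS28BM control.

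FKBP14, which acts on collagen, was at 4.43 FPKM in KMS18 knockdown and 6.98 FPKM in KMS18 control, and at 2.72 FPKM in KMS28BM knockdown and 4.50 FPKM in KMS28BM control. Its call (log2 difference -0.60, SE 0.14, edgeR adjusted p = 0.0496) was lost in 5 of 7 alternatives. The listed length of FKBP14 was also longer in knockdown than in control, 1.156 times in KMS18 and 1.072 times in KMS28BM. FKBP7 was at 7.07 FPKM in KMS18 knockdown and 5.18 FPKM in KMS18 control, and at 2.50 FPKM in KMS28BM knockdown and 1.63 FPKM in KMS28BM control (log2 difference 0.25, interval -0.33 to 0.83, edgeR adjusted p = 0.571).

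Across the 7 alternatives that kept cell line in a tested model, 9 of the 21 calls held in all 7. These were HSPA5, HSP90B1, DNAJC3, MANF, MZB1, PDIA4, TXNDC11, TMX1 and ERO1A. PDIA5, DNAJC10, HYOU1 and FKBP11 held in 6, and DNAJB11, SDF2L1, FKBP2 and PPIB in 5.

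The size of the knockdown difference was compared between the lines, gene by gene, on TMM-scaled counts. The median log2 ratio was -0.43 in KMS18 and -0.41 in KMS28BM. For 35 of the 39 genes the 2 ratios lay within 0.3 of each other. Across the 39 genes the ratios correlated with a Pearson r of 0.85 and a Spearman rho of 0.91, against 0.51 and 0.52 across all 14870 genes tested. These sets differ in level: 38 or 39 of the 39 genes reached 1 FPKM in each library, and many of the 14870 did not. A small constant was added to the scaled counts for all genes but not for the 39. The part of level and constant in the gap was not tested. The lines share no library, but genes are not independent replicates. The 4 genes further apart than 0.3 were ERO1B, FKBP11, UGGT2 and DNAJC10, the last at -0.47 in KMS18 and -0.78 in KMS28BM. Whether the lines differed was not tested, since each has 1 library per construct.

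**Figure D4:**
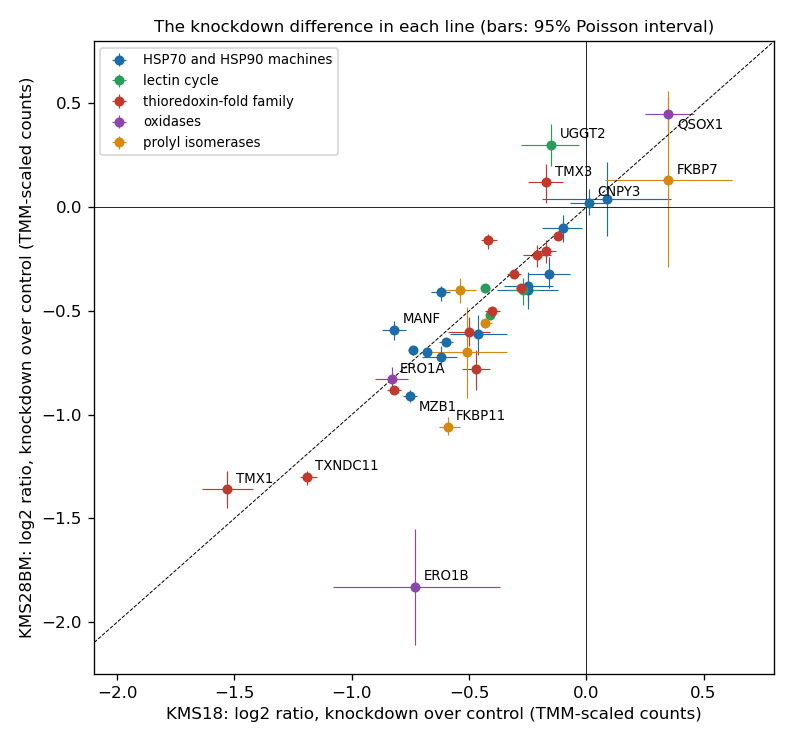
Log2 ratio of TMM-scaled counts, knockdown over control, in KMS28BM (vertical) against KMS18 (horizontal) for the 39 genes, with 95% Poisson intervals that cover counting error only, and the line of equality dashed. Most points lie near the line, ERO1B (-0.73 in KMS18, -1.83 in KMS28BM) lies furthest from it, and TMX3 and UGGT2 lie in the quadrant of opposite signs.

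The cell lines themselves differed in many of these genes over both constructs, and the difference was not tested at either construct alone. Of the 39, 23 were higher in KMS28BM than in KMS18 (59.0%) and 6 were lower (15.4%), by the line term of the same edgeR fit, where 30.6% of all tested genes were higher and 32.3% lower. The median log2 difference of KMS28BM minus KMS18 was 0.41, against -0.02 for all genes tested. HYOU1 (1.75, SE 0.11, edgeR adjusted p = 2.05e-05), PDIA4 (1.63, SE 0.11), DNAJC3 (1.34, SE 0.10), CRELD2 (1.10, SE 0.11) and CNPY4 (1.07, SE 0.17) were furthest above KMS18. FKBP7 (-1.43, SE 0.25), DNAJC10 (-1.37, SE 0.11), ERP44 (-1.01, SE 0.09), FKBP14 (-0.98, SE 0.14), TMX3 (-0.62, SE 0.11) and HSP90B1 (-0.33, SE 0.11) were below. CALR had the highest FPKM of the 39 in both KMS18 libraries and TXNDC5 in both KMS28BM libraries. This contrast sets 1 cell line against another, so its p-values speak of these lines only.

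By promoter, 6 of the 9 genes with an ERSE or ERSE-II fell and 0 rose, with a median log2 difference of -0.54. Of all tested genes 5.25% fell and 3.57% rose. Of the 28 genes with neither, 13 fell and 0 rose, with a median of -0.34. The genes with an element that did not pass were PDIA6, CALR and CRELD2, whose sites are printed above. Among the other 20 tested genes with either element 4 fell and 0 rose, with a median of -0.21. These 20 include XBP1, which fell and is also counted among the regulators further on. Of the 3 genes with the lowest log2 differences, ERO1B held an ERSE, and TMX1 and TXNDC11 held neither element in this window. TGACGTG, also searched on both strands, was in 5 of 37 genes (13.5%), against 3.33% of tested genes, and CCACG alone in 30 of 37 (81.1%), against 56.55%. These letters describe the sequence and do not show binding.

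Letters in the transcripts were compared because an earlier look at these data had singled out AGTCTAA and CAGTCTA, so what follows is a description only. GENCODE 29 coding transcripts (GRCh38) with either run in the 3′ untranslated region (UTR) were found for 7 of the 39 genes. These were TMX1, ERO1B, ERO1A, DNAJC3, DNAJC10, FKBP14 and CANX. All 7 fell, with a median log2 difference of -0.67, against 300 of 1838 tested genes of that class (16.3%) and a median of -0.13. One site per gene is printed with 8 bases on either side, in the direction of the transcript, with the matched letters in capitals, and each is named by its first base in the UTR.
TMX1, base 106: gcagggttCAGTCTAgattgtca
ERO1B, base 646: gctgtttcCAGTCTAAaggacctc
ERO1A, base 2373: tcctgtaaAGTCTAAaatcttaa
DNAJC3, base 2900: agacacatCAGTCTAgaagcatt
DNAJC10, base 4221 (1 of 3 sites): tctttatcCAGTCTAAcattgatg
FKBP14, base 1144: tagtaaacCAGTCTAcattttcc
CANX, base 1141: acttgagaAGTCTAAttcacagg

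The ER folding genes without these letters were lower as well. Of the 20 with no AGTCTA in any transcript 11 fell (55.0%), with a median of -0.46, against 206 of 7164 tested genes of that class (2.9%) and a median of 0.06. They include HSPA5, PDIA4, MZB1, MANF and TXNDC11. Of the 12 with AGTCTA alone or elsewhere in a transcript 3 fell (25.0%), namely HSP90B1, HYOU1 and FKBP11, with a median of -0.30 against -0.02 for 4420 tested genes of that class. These 3 carried a longer match only outside the 3′ UTR of a coding transcript, as did PDIA6 and TXNDC12, which did not pass.

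**Figure D5:**
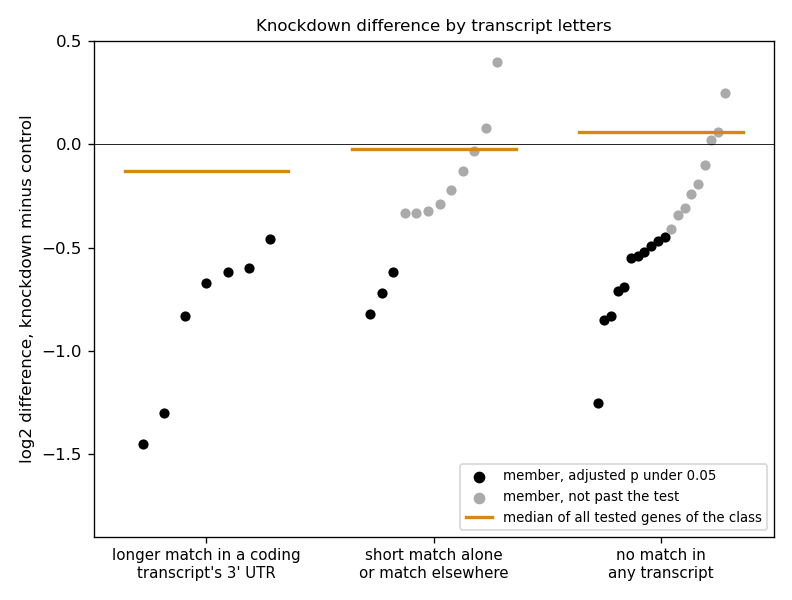
Log2 difference of knockdown minus control for the 39 genes, split by whether the letters AGTCTA, or the longer AGTCTAA or CAGTCTA, occur in their transcripts (black: adjusted p under 0.05). All 7 genes with the longer match in a coding transcript's 3′ UTR are black, as are 3 of 12 and 11 of 20 in the other classes; orange lines give the median of all tested genes of each class, -0.13, -0.02 and 0.06.

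Other gene lists set the 39 genes beside their regulators and relatives. Of 14 regulators of the unfolded protein response 4 fell (28.6%) and 0 rose, with a median log2 difference of -0.11. Over all tested genes 5.25% fell and 3.57% rose. XBP1, the transcription factor that IRE1 splices, had 196 FPKM in KMS18 knockdown and 360 FPKM in KMS18 control, and 265 FPKM in KMS28BM knockdown and 472 FPKM in KMS28BM control (log2 difference -0.90, SE 0.10, edgeR adjusted p = 0.00671). These values sum spliced and unspliced XBP1. Both of its knockdown libraries lay below both controls. CREB3L2, a membrane-bound transcription factor of secretory cells, had 13 FPKM in KMS18 knockdown and 23.7 FPKM in KMS18 control, and 24.9 FPKM in KMS28BM knockdown and 51.6 FPKM in KMS28BM control, and fell by 1.05 (SE 0.10, edgeR adjusted p = 0.00507). NFYA, the subunit of NF-Y that contacts CCAAT, fell by 0.73 (SE 0.10, edgeR adjusted p = 0.0117), with 10.5 FPKM in KMS18 knockdown and 15.8 FPKM in KMS18 control, and 16.2 FPKM in KMS28BM knockdown and 24.4 FPKM in KMS28BM control. The other NF-Y subunits, NFYB (log2 difference -0.11, edgeR adjusted p = 0.63) and NFYC (0.21, edgeR adjusted p = 0.235), did not pass. ERN1, which encodes the sensor IRE1, fell by 0.54 (SE 0.09, edgeR adjusted p = 0.0197). It had 10.1 FPKM in KMS18 knockdown and 12.4 FPKM in KMS18 control, and 19.1 FPKM in KMS28BM knockdown and 23.5 FPKM in KMS28BM control. The ERN1 call was lost with no filter and with limma, which gave -0.28 on log2(FPKM + 1) (limma adjusted p = 0.142). The 10 other regulators did not pass. ATF6 had 21.3 FPKM in KMS18 knockdown and 23.6 FPKM in KMS18 control, and 22.6 FPKM in KMS28BM knockdown and 29.4 FPKM in KMS28BM control, and did not pass (edgeR adjusted p = 0.154).

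Of 24 other ER folding factors tested 4 fell (16.7%) and 1 rose (4.17%), with a median of -0.08. The shares over all tested genes were 5.25% and 3.57%. SEC63, the J-domain protein of the translocon, had 14.1 FPKM in KMS18 knockdown and 42.7 FPKM in KMS18 control, and 23.4 FPKM in KMS28BM knockdown and 53.9 FPKM in KMS28BM control, and fell by 1.38 (SE 0.09, edgeR adjusted p = 0.00292). TOR1B, an ATPase of the ER lumen, fell by 1.03 (SE 0.14), CLGN, a calnexin relative, by 0.77 (SE 0.16, a call lost in 5 of 7 alternatives) and VKORC1, which recycles vitamin K, by 0.64 (SE 0.09). SERPINH1 (HSP47), the collagen chaperone, rose by 1.19 (SE 0.14, edgeR adjusted p = 0.00721), with 13.8 FPKM in KMS18 knockdown and 6.96 FPKM in KMS18 control, and 111 FPKM in KMS28BM knockdown and 39 FPKM in KMS28BM control. Of 19 cytosolic and mitochondrial chaperones tested 1 fell (5.26%, near the 5.25% of all tested genes) and 0 rose. The 1 that fell was HSP90AA1 (-0.53, SE 0.12, edgeR adjusted p = 0.0443, a call lost in 4 of 7 alternatives). The median of the 19 was -0.23. Of the 19, 15 (78.9%) were below control in both lines, against 32.9% of all tested genes.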

How the data were processed

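Total RNA (100 ng) from 4 cultures went into TruSeq RNA version 2 libraries, per the labels' protocols; this kit keeps no strand. Per the file headers, the tables the authors deposited (1 per library) list an expected count, an FPKM value and a length per gene. The deposited FPKM values are scaled to that length and to library size. STAR, Bowtie2, HISAT, GRCh37 and hg19 stand in the submitters' processing notes without steps, and the sources used here do not give which program counted.

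Identifiers with the same symbol were added up. Expected counts were rounded and fitted with edgeR 4.0.16 in R 4.3.3 (quasi-likelihood test, TMM, default filter with a minimum count of 10, cell line and construct in the model, Benjamini-Hochberg adjustment over 14870 genes at 0.05). The libraries are paired by cell line, as the labels give them, which left 1 residual degree of freedom. The fit shares variance between genes, with 5.85 prior degrees of freedom. A p-value thus sets a gene's difference against a spread drawn largely from other genes. That spread reflects how alike these lines moved, not the spread between cultures. Poisson intervals cover counting error only. The 7 tested alternatives with a line term were median of ratios scaling, library totals, no filter, 5 CPM in at least 2 libraries, DESeq2 1.42.0, and limma 3.58.1 on log2(FPKM + 1) and on log2(FPKM + 0.1). Gene positions and transcripts came from GENCODE 29 (GRCh38) and were not converted, and 24 of the 39 genes share exon positions with another annotated gene. All 39 genes, PRKCA and the called genes of the other lists were eligible to be named. ATF6, NFYB and NFYC were named after their values were seen. The genes, their roles, the other lists and the letters searched were chosen with earlier results of these data known.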

Additional observations from a re-analysis of the deposited data

Results flagged for a closer look

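For TMX3 the knockdown library lay on opposite sides of its control in the 2 lines, with a log2 ratio of TMM-scaled counts of -0.17 in KMS18 and 0.12 in KMS28BM. UGGT2 did the same, with -0.15 in KMS18 and 0.30 in KMS28BM. Each value compares 1 library with 1 library, and the difference between the lines was not tested.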

How the results depend on the processing

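The 21 calls of lower level (5.25% of all tested genes fell) became 20 with median of ratios scaling (4.69%), 13 with library totals (2.74%) and 9 with no filter (1.1% of 22108 genes). They became 17 of the 38 tested at 5 CPM (6.6% of 10897 genes), 22 with DESeq2 (5.76%), and 20 and 21 with limma on log2(FPKM + 1) and log2(FPKM + 0.1) (3.87% and 4.22% of 12598 genes). The count of higher calls was 1 at 5 CPM and 1 with DESeq2 (QSOX1 in both) and 0 in the other settings. With no replicate block (cell line left out of the model, so that the pairing by line is lost) edgeR called 0. Leaving out either line gives a value with no test and no count. Restricted to genes without AGTCTAA or CAGTCTA in any transcript, 11 of 27 fell (40.7%, median log2 difference -0.33), and of the 12 with those letters 10 fell (83.3%, median -0.64). Over all tested genes with a transcript 3.49% fell without those letters and 11.2% with them. Restricted to genes without AGTCTA, 11 of 20 fell, against 2.9% of all such genes; fewer genes are counted there by construction. TMX3 changed sign with library totals (0.04, edgeR adjusted p = 0.869), and the cause was not tested. Between lines, 20 to 25 genes were higher and 5 to 7 lower in KMS28BM over the alternatives. The share of counts in knockdown over control was 0.754 in KMS18 and 0.752 in KMS28BM. It became 0.718 and 0.737 as a share of FPKM, and 0.712 and 0.704 without TXNDC5, CALR and PPIB. Low counts limit ERO1B, FKBP7, FKBP14 and CNPY4.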
